A study of Homo sapiens with 12 samples.

Results

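The genes of DNA replication and the cell cycle make up a set of 46 named genes, from the loaders of the replicative helicase to the motors of the mitotic spindle. They were looked up by gene name in 6 lists of RNA regions bound by METTL16, eIF3a or eIF3b. A region, here called a peak, is a stretch of a transcript that was enriched in the RNA recovered with a protein over input RNA. Of the 46 genes, 41 (89.1%) carried a peak in at least 1 list, and together they held 529 peaks. Of the 20007 annotated protein coding genes 53.6% carried a peak, but these were not limited to genes expressed in the cells used. The 6 lists hold 10830 gene names in all.

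The cells were HepG2, an established human liver cancer line. METTL16 cells stably overexpressed METTL16 with a 3XFlag tag from the pmiRNA1 vector, and eIF3a or eIF3b cells overexpressed that subunit from pSIN4, so every list describes cells with more of the bait than the parental line. All were cross-linked with ultraviolet light before RNA immunoprecipitation and sequencing (RIP-seq). The series held 12 samples, namely 2 RIP samples and 2 inputs for each of the 3 proteins. Per the labels, METTL16 and eIF3b were recovered with a Flag antibody and eIF3a with an antibody against eIF3a, so antibody and protein cannot be told apart for eIF3a, although the deposited lists of all 3 proteins are named as Flag. The study's methods describe the replicates as biological. The lists give no read counts, so the depth behind a peak is unknown, and a missing peak can mean no enrichment, few reads or a transcript that was scarce in the input. Of 8 liver marker genes, SERPINA1 carried a peak in 6 lists, APOA1 and APOB in 5, FGB in 3, AFP and TF in 2, ALB in 1 and TTR in 0. A list shows enrichment and not level, so these counts do not grade the cells.

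METTL16 is an RNA methyltransferase, and eIF3a and eIF3b are core subunits of eIF3, the complex that helps the small ribosomal subunit engage an mRNA. Cells copy DNA once per cycle because the MCM helicase is loaded at origins in G1 by ORC, CDC6 and CDT1 and is switched on in S phase by CDC45 and the GINS complex. Entry into S phase follows when D-type cyclins with CDK4 or CDK6 inactivate RB1 and release E2F factors, which drive transcription of replication genes. Later, cyclin B with CDK1 and the Aurora and Polo kinases carry the cell through mitosis, and FOXM1 drives transcription of mitotic genes.

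The share of genes with a peak was compared list by list with that of all gene names. Replicates 1 and 2 of METTL16 held peaks on 27 (65.9%) and 31 (75.6%) of the 41 genes, against 53.8% and 58.5% of all 10830 names. For eIF3a the counts were 29 (70.7%) and 26 (63.4%), against 75.4% and 48.3%. For eIF3b they were 31 (75.6%) and 30 (73.2%), against 74.5% and 69.9%. The share of replication and cell cycle genes thus lay above that of all names in 5 lists and below it in eIF3a replicate 1. These backgrounds describe the lists, and no test was made of the set against them.

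In both replicates of METTL16, peaks lay on 23 genes (56.1%), against 42.6% of all names. In both replicates of eIF3a they lay on 20 (48.8%, against 42.4%), and in both of eIF3b on 26 (63.4%, against 60%). All 6 lists shared 14 genes, or 34.1%, against 25.2% of all names. These 14 were MCM3, MCM4, CDT1, GINS1, POLE, CCND1, CDK6, CDC25B, E2F1, AURKB, CENPF, TPX2, MKI67 and FOXM1. The mean number of genes per list was 29 ± 2.83 (SD, n = 2) for METTL16, 27.5 ± 2.12 for eIF3a and 30.5 ± 0.707 for eIF3b. None of the 3 differences between proteins could be told from the spread between lists (exact permutation test, two-sided, p = 0.667 for METTL16 against eIF3a, 1 for METTL16 against eIF3b and 0.333 for eIF3a against eIF3b). With 2 lists against 2, no p below 0.333 can be reached, and adjustment over the 6 tests made here gave 0.667 to 1.

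**Figure D1:**
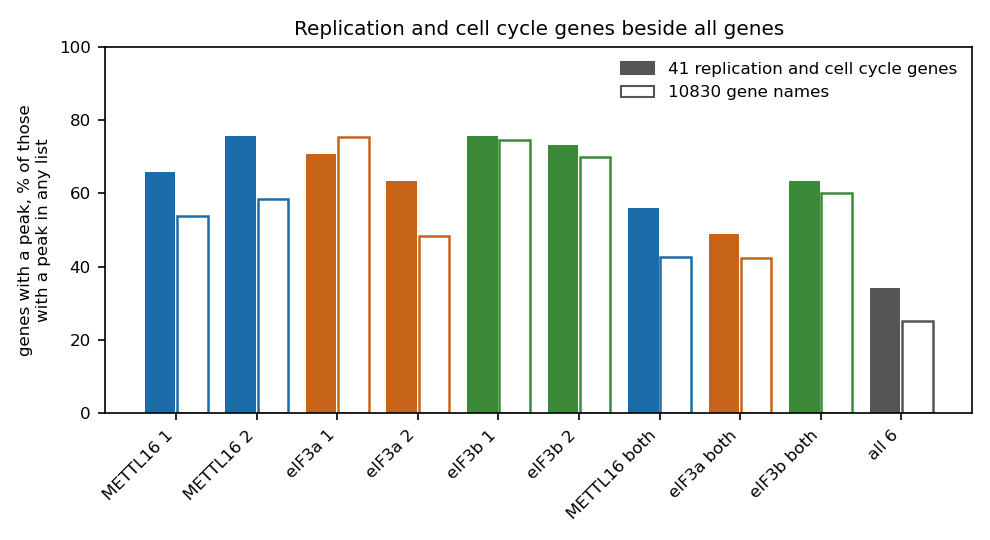
Percentage of genes with a peak (vertical axis) in each list, in both replicates of a protein and in all 6 lists. Filled bars show the 41 replication and cell cycle genes and open bars all 10830 gene names, both out of genes with a peak in any list. The filled bar is the taller one everywhere except in eIF3a replicate 1 (70.7% against 75.4%).

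Strong enrichment was counted next. Its share in the set was near that of all names for METTL16 and below it for eIF3a and eIF3b. A peak of at least 4-fold over input in both replicates was held by 7 genes for METTL16 (17.1%, against 17.9% of all names), 4 for eIF3a (9.76%, against 14.3%) and 7 for eIF3b (17.1%, against 24.8%). For METTL16 these were TPX2, CENPF, CDT1, POLE, GINS1, E2F2 and CCND1. For eIF3a they were CDC45, GINS1, POLE and BUB1B. For eIF3b they were CCND1, GINS1, CENPF, E2F2, BUB1B, CENPE and CDK6. GINS1 was the 1 gene on all 3 lists of names, and the share of all gene names that met all 3 was not counted.

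The 5 genes without any peak were MCM6, CCNE1, CDK2, CDK4 and CDC20. Their canonical transcripts ran from 1649 to 3753 bases (CDC20 and MCM6), with a median of 1954 against 3258 for the 27 genes with a peak in 1 to 5 lists and 3512.5 for the 14 with a peak in all 6. Over all genes the same medians were 2255, 3151 and 4500.5 bases, so these 3 medians had the same order there. Within the set the rise was not steady, with medians of 3844 bases for genes in 3 lists, 4564 in 4 and 3436 in 5. The part of length in these counts was not tested.

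**Figure D2:**
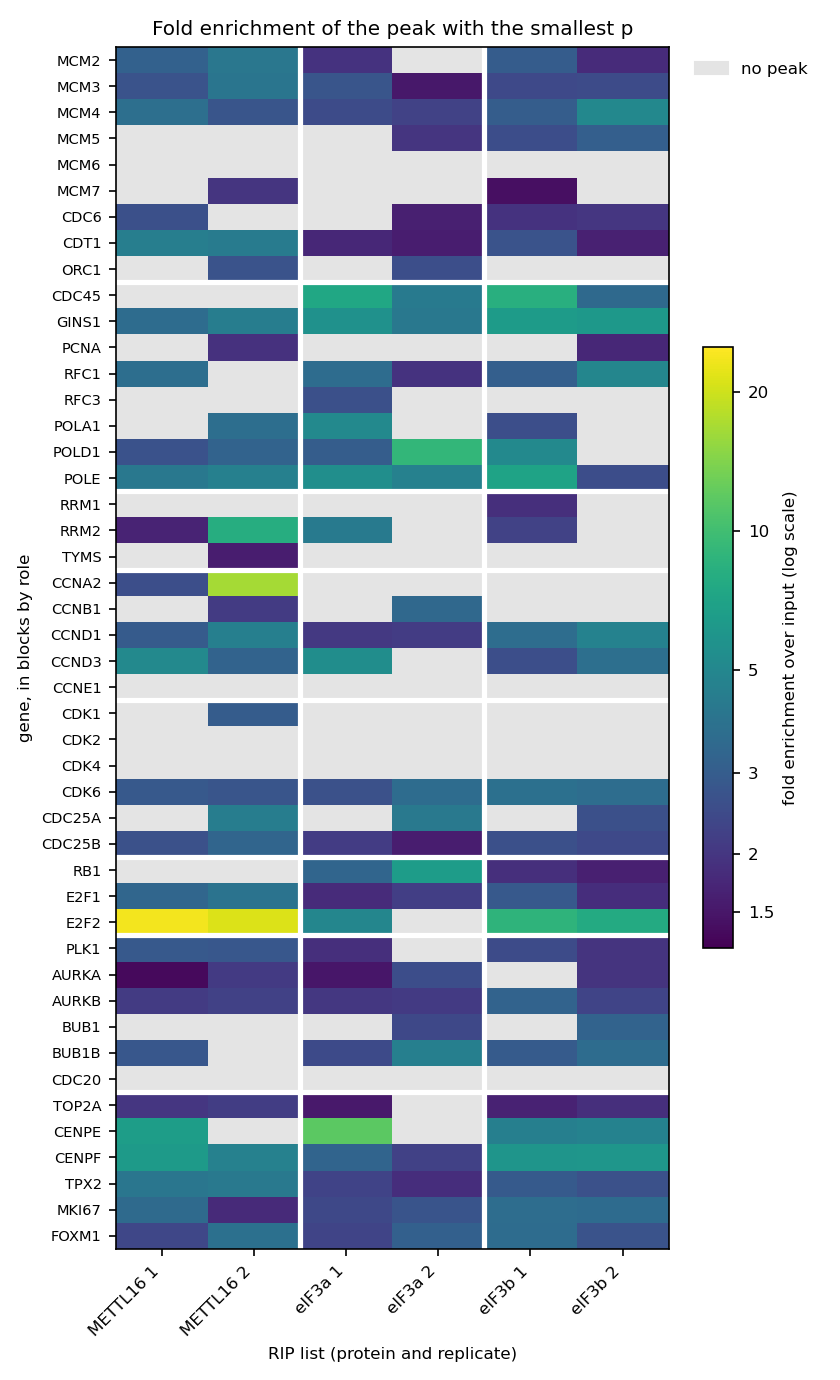
Fold enrichment over input (colour, log scale) of the peak with the smallest p-value on each of the 46 genes (rows, in blocks by role) in each of the 6 lists (columns). Grey cells have no peak; E2F2 in the METTL16 lists (23.8 and 21.4) and CCNA2 in METTL16 replicate 2 (16.7) are the brightest cells.

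The 8 genes that stood highest in all 6 lists, judged by the poorest rank that each reached by p-value, were CDK6, CCND1, TPX2, CENPF, MCM3, CDC25B, E2F1 and MKI67. In their weakest lists CDK6, first among them, ranked 1855 and MKI67, the last, 4182. In their strongest lists CCND1 ranked 144 and TPX2 303, both with METTL16. Fold values below belong to the peak with the smallest p-value and are given in the order METTL16 replicates 1 and 2, eIF3a replicates 1 and 2, and eIF3b replicates 1 and 2. That peak need not lie at the same place in every list, so an order of these folds is not an order at matched sites. Positions are bases of the canonical transcript counted from its 5′ end. Stretches of coding sequence that lay under a peak in all 6 lists are printed for CCND1, TPX2, CENPF and MCM3, the first 4 of these genes to have one, so that the shared ground of the proteins can be read. They were read from GRCh38 on the strand of the transcript, and capitals mark GGACT, a common form of the motif at which m6A is deposited by other methyltransferases.

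CCND1: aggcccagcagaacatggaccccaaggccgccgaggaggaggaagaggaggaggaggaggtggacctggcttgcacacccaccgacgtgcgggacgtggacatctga
TPX2: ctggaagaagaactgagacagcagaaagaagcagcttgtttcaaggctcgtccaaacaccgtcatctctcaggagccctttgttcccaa
CENPF: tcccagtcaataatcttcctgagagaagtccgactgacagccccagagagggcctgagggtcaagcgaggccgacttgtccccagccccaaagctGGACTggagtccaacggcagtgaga
MCM3: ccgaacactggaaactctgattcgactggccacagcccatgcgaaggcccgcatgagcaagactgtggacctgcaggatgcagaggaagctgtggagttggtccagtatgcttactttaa

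The CCND1 stretch of 107 bases (chr11:69651176-69651282, plus strand, exon 5 of 5) is the end of the coding sequence, bases 782 to 888 of 888 with the stop codon, and 65.4% of it is G or C. The TPX2 stretch of 89 bases (chr20:31797404-31797492, plus strand, exon 16 of 18) covers coding bases 1834 to 1922 of 2244 and has 49.4% GC. The CENPF stretch of 120 bases (chr1:214663658-214663777, plus strand, exon 20 of 20) covers coding bases 9209 to 9328 of 9345, close to the stop codon, and has 59.2% GC. The MCM3 stretch of 120 bases (chr6:52269090-52269209, minus strand, exon 13 of 17) covers coding bases 1845 to 1964 of 2427 and has 54.2% GC. Of these 4 stretches, the CENPF one alone holds GGACT.

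Among the cyclins, CCND1, the D-type cyclin that starts the G1 switch, had peaks at the same places with all 3 proteins. The fold of its best peak was 2.97 and 4.57 for METTL16, 2.06 and 2.12 for eIF3a, and 3.66 and 4.72 for eIF3b. The eIF3a values lay below those of the other 4 lists, which overlapped each other, but the best peaks did not all lie at the same place. In the peaks over 3′ UTR bases 3248 to 3398, folds were 5.81 and 3.63 for METTL16. There they were 4.13 and 2.12 for eIF3a, and 6.84 and 3.94 for eIF3b, so the values overlapped. Peaks numbered 6 and 3, then 7 and 4, then 6 and 7, and covered between 28.4% and 57.7% of the transcript. One group of peaks began at base 1 or 10, on the 5′ UTR or across the start codon, which begins at base 159. A second lay across the stop codon at base 1046 in all 6 lists, and a last group covered the 3′ UTR beyond. In METTL16 replicate 2 the first and second groups were joined in 1 peak of 1170 bases that took in the whole coding sequence. In all, 392 bases of CCND1 lay under a peak in every list, of which 91 were 5′ UTR, 107 coding and 194 3′ UTR, the most of any gene of the set.

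CCNA2, the cyclin of S phase and G2, behaved otherwise. It carried a peak in both METTL16 lists, of 2.58-fold at bases 130 to 249 and 16.7-fold at bases 1 to 457, and in no list of eIF3a or eIF3b. Both peaks were centred on the 5′ UTR, and the wider one ran across the start codon at base 256. CCNA2 was the 1 gene of the set with peaks in both METTL16 lists and none elsewhere. The share of all names with this pattern was not counted. By p-value CCNA2 ranked 5134 among 5829 genes in METTL16 replicate 1 and 3130 among 6337 in replicate 2. The folds of the METTL16 peaks differed more than 6 times between replicates, so its strength is not well fixed. CCND3, another D-type cyclin, had peaks in 5 lists with folds of 2.56 to 5.46, CCNB1, the mitotic cyclin, in 1 METTL16 and 1 eIF3a list, and CCNE1 in none.

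Among the kinases, CDK6, a partner of the D-type cyclins, gave folds of 2.89 and 2.75 for METTL16, 2.63 and 3.59 for eIF3a, and 3.78 and 3.65 for eIF3b. These values overlapped between METTL16 and eIF3a, and both eIF3b values lay above them. Both eIF3b peaks lay at bases 1 to 726, but those of METTL16 replicate 1 and of eIF3a lay in the 3′ UTR. There, within bases 9116 to 9536, folds were 2.89 for METTL16 replicate 1, 3.35 and 3.59 for eIF3a, and 3.41 and 6.15 for eIF3b. The CDK6 transcript of 11663 bases is mostly 3′ UTR, and peaks numbered 8 and 1, 14 and 12, and 6 and 13. METTL16 replicate 2 held only 1 of them, at bases 247 to 756. All 6 lists had a peak at the end of the 5′ UTR, where 120 bases of exon 2 of 8 lay under a peak in every list. In 5 of the lists it ran across the start codon at base 464, the exception being eIF3a replicate 2, whose peak ended at base 426. The other 5 lists also carried a scatter of peaks along the 3′ UTR, with 5 to 12 per list. CDK4, the closest relative of CDK6, and CDK2 had no peak, and CDK1, the mitotic kinase, had 1 of 2.98-fold in METTL16 replicate 2.

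CDC25B, a phosphatase that activates cyclin-dependent kinases, gave folds of 2.62 and 3.34, 2.13 and 1.58, and 2.60 and 2.42. Both eIF3a values were below those of the other 4 lists. A peak in the middle of the coding sequence was found in all 6 lists, with 121 bases of exons 10 and 11 in common, and it was widest in eIF3b replicate 1 (895 bases) and narrowest in eIF3a replicate 2 (150 bases). Both METTL16 lists had a further peak across the stop codon at base 1965, of 2.95 and 4.76-fold, as did eIF3b replicate 1 (4.19-fold). CDC25A, its G1 relative, had peaks in 1 list of each protein, of 4.47, 4.22 and 2.59-fold.

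In the G1 switch, E2F1, a transcription factor of replication genes, gave folds of 3.37 and 3.93 for METTL16, 1.80 and 2.17 for eIF3a, and 2.88 and 1.85 for eIF3b. Both METTL16 values lay above all 4 eIF3 values, but the best peaks did not all lie at the same place. At the site near the end of the 3′ UTR, folds were 1.97 and 3.53 for METTL16. There they were 2.08 and 2.34 for eIF3a, and 2.32 and 1.85 for eIF3b, so the order did not hold. Of the 3 to 5 E2F1 peaks per list, every list had one near coding bases of exons 1 to 3, one over exon 6 or 7, and one within bases 2231 to 2471 near the end of the 3′ UTR. Both METTL16 lists, eIF3a replicate 1 and eIF3b replicate 2 had further 3′ UTR peaks, between bases 1481 and 2171, that the other lists lacked. In all, 333 bases were shared by all 6 lists (182 coding and 151 of 3′ UTR). E2F2, its relative, was called with higher folds, of 23.8 and 21.4 for METTL16, 4.96 for eIF3a replicate 1, and 8.79 and 7.83 for eIF3b, with no peak in eIF3a replicate 2. Its best METTL16 peaks were coding but lay apart, at bases 641 to 909 in replicate 1 and 1237 to 1416 in replicate 2, where replicate 1 had a second peak of 7.06-fold at bases 1267 to 1387. By p-value E2F2 ranked 3904 or poorer in every list, so its high folds came with modest p-values. RB1, the brake on E2F factors, had no METTL16 peak. For eIF3a its peaks were 3.31 and 6.53-fold in the 3′ UTR, at bases 3993 to 4321 and 4261 to 4380. For eIF3b they were 1.87-fold across the start codon and 1.63-fold in the coding sequence, so both eIF3 subunits gave peaks but no shared base.

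Replication licensing held 9 genes, of which 8 carried a peak. Of these 8, 4 had a peak in both METTL16 lists (50%, against 42.6% of all names), 3 in both eIF3a lists (37.5%, against 42.4%), 6 in both eIF3b lists (75%, against 60%) and 3 in all 6 (37.5%, against 25.2%). MCM3, a subunit of the MCM helicase, gave folds of 2.70 and 4.0, 2.75 and 1.52, and 2.41 and 2.47. The lowest value was that of eIF3a replicate 2 and the highest that of METTL16 replicate 2. Every list had a peak over exons 13 and 14, in which 150 coding bases were shared by all, and in 4 lists, those of METTL16 and eIF3b, a peak crossed the stop codon at base 2495. MCM4, another subunit, had its best peak in the 3′ UTR in all 6 lists, with folds of 3.72 and 2.75, 2.48 and 2.27, and 3.01 and 5.05, yet no base was under a peak in every list. The eIF3a replicate 2 peak lay at bases 3402 to 3522, beyond the METTL16 peaks at 2892 to 3252 and 3072 to 3252.

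MCM5 had no METTL16 peak, 1 eIF3a peak of 1.99-fold and eIF3b peaks of 2.54 and 3.10-fold. The eIF3a peak and the first eIF3b peak overlapped in the coding sequence (bases 1840 to 2140 and 1930 to 2140), and the second eIF3b peak lay on the 5′ UTR. MCM2 had peaks in 5 lists (1.80 to 4.09-fold), all best peaks coding, MCM7 in 2 and MCM6 in none, so the 6 subunits of 1 complex ran from no list to all 6. CDT1, which loads the helicase with CDC6, gave folds of 4.48 and 4.36 for METTL16, 1.75 and 1.58 for eIF3a, and 2.70 and 1.64 for eIF3b. Both METTL16 values lay above the other 4, but these peaks did not all lie at the same place. The eIF3b replicate 1 value of 2.70 was from bases 911 to 1327. A second peak of that list, at bases 109 to 584, was 4.12-fold and overlapped the METTL16 replicate 1 peak at bases 139 to 584. The best CDT1 peak was coding with METTL16 and eIF3b and in the 3′ UTR with eIF3a. CDC6 had peaks in 4 lists (1.63 to 2.61-fold) and ORC1, a subunit of the origin recognition complex, in 2.

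At the replication fork, all 8 genes carried a peak, against 53.6% of protein coding genes. Of these 8, 3 had a peak in both METTL16 lists (37.5%, against 42.6% of all names) and 5 in both eIF3a lists (62.5%, against 42.4%). In both eIF3b lists 4 had one (50%, against 60%), and 2, GINS1 and POLE, had one in all 6 (25%, against 25.2%). GINS1, a subunit of the complex that activates the helicase, was the 1 gene of the set with a peak of at least 4-fold in every list. The share of all names with such peaks in every list was not counted. By the peak with the smallest p-value, the GINS1 folds were 3.61 and 4.47 for METTL16, 5.72 and 4.17 for eIF3a, and 6.44 and 6.17 for eIF3b, of which the eIF3b values were the highest. Its highest folds of any peak were 6.18 and 4.47 for METTL16, 10.5 and 11.6 for eIF3a, and 6.44 and 6.17 for eIF3b. By this measure the eIF3a values lay above the other 4, and each of these 6 peaks was in the 3′ UTR. No GINS1 base was shared by all 6 lists. POLE, the catalytic subunit of the leading strand polymerase, had best peaks of 4.14 and 4.59, 5.48 and 4.64, and 7.11 and 2.53-fold, and 1, 3, 7, 8, 8 and 3 peaks, of which the METTL16 replicate 1 peak was the 1 best peak outside the coding sequence. CDC45, the partner of GINS in the active helicase, had no METTL16 peak but 1 coding peak in each eIF3 list, of 7.44 and 4.28-fold for eIF3a and 8.24 and 3.49-fold for eIF3b. The eIF3b replicate 2 peak of CDC45 lay near base 1617 and the others between bases 592 and 877, and no p-value of these peaks was below 2.5e-06.

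RFC1, the large subunit of the clamp loader, had peaks in 5 lists, the strongest in eIF3b replicate 2, where it ranked 258 by p-value (4.95-fold). POLD1, the catalytic subunit of the lagging strand polymerase, had peaks in 5 lists with 9.12-fold and rank 401 in eIF3a replicate 2 and none in eIF3b replicate 2. POLA1, of the polymerase that makes the primers, had peaks in 3 lists, PCNA, the sliding clamp, in 2, and RFC3 in 1. Of the enzymes of nucleotide supply, RRM2, the small subunit of ribonucleotide reductase, had peaks in 4 lists, of 1.69 and 8.07-fold for METTL16, 4.30-fold for eIF3a and 2.26-fold for eIF3b, and each of these best peaks was centred on coding sequence within exons 1 to 4. A further peak, of 7.34-fold in eIF3a replicate 2, was deposited under C2orf48 but lies on RRM2 exons. RRM1 and TYMS, the other enzymes of this group, had a peak in 1 list each.

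Of the mitotic genes, CENPF, a kinetochore protein, gave folds of 6.36 and 4.65 for METTL16, 3.29 and 2.23 for eIF3a, and 5.99 and 6.02 for eIF3b. Both eIF3a values lay below the other 4, but the best peaks did not all lie at the same place. In the peaks at the end of the coding sequence, folds were 4.08 and 2.73 for METTL16. There they were 3.99 and 2.49 for eIF3a, and 4.02 and 7.46 for eIF3b, so the values overlapped. CENPF had the most peaks of the set, 61 over the 6 lists, of which 60 were centred on coding sequence, and they covered 5.28% of the transcript in eIF3a replicate 2 and 62.1% in eIF3b replicate 2. The widest peak of the set, of 1737 bases and 4.47-fold, lay in exon 13 of 20 of CENPF in eIF3b replicate 2. A peak at the start codon at base 169 was present in 5 lists, all but eIF3a replicate 2, and 333 coding bases were shared by all 6 lists. CENPE, the kinetochore motor, had 25 coding peaks in 4 lists, with best folds of 6.62 in METTL16 replicate 1, 11.8 in eIF3a replicate 1, and 4.58 and 4.70 in eIF3b.

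TPX2, which targets AURKA to the spindle, gave folds of 4.03 and 4.21, 2.29 and 1.84, and 2.91 and 2.62. Here the order was METTL16, eIF3b, eIF3a with no overlap between the proteins. Its best peak was coding in all 6 lists, and the shared 150 bases lay in exons 15 and 16. MKI67, the proliferation marker Ki-67, gave folds of 3.51 and 1.78, 2.38 and 2.73, and 3.65 and 3.58. All 53 of its peaks were coding, and 5 of the lists held 9 to 13 of them, while METTL16 replicate 2 held 2. TOP2A, which untangles DNA, had peaks in 5 lists, all of 2.15-fold or less. FOXM1 had a best peak in the coding sequence with METTL16 (2.37 and 3.79-fold, both within bases 1853 to 2151) and in the 3′ UTR or across the stop codon with eIF3a (2.3 and 3.12-fold) and eIF3b (3.62 and 2.68-fold), so the METTL16 peaks of this gene touched none of the eIF3 peaks.

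Among the mitotic kinases and the checkpoint, AURKB, the kinase of the chromosomal passenger complex, had exactly 1 peak per list, always coding, of 2.11 and 2.24, 2.02 and 2.08, and 3.23 and 2.31-fold. Only 31 of its bases were shared by all 6. AURKA had peaks in 5 lists of 1.35 to 2.55-fold. PLK1, the Polo kinase of mitotic entry, had a peak across its start codon in both METTL16 lists (3.23 and 8.34-fold) and both eIF3b lists (3.73 and 2.07-fold) and none there with eIF3a. BUB1B, a checkpoint protein that restrains the anaphase ubiquitin ligase, had no peak in METTL16 replicate 2. In 4 other lists it had a peak on the 5′ UTR, of 6.62-fold in METTL16 replicate 1, 22.3-fold in eIF3a replicate 1, and 10.5 and 16-fold in eIF3b, which began at base 1 or 31 and in 2 lists crossed the start codon at base 153. In eIF3a replicate 2 the 1 peak of BUB1B was coding, at bases 719 to 1587. BUB1 had peaks in 2 lists and CDC20, which activates the anaphase ligase, in none.

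**Figure D3:**
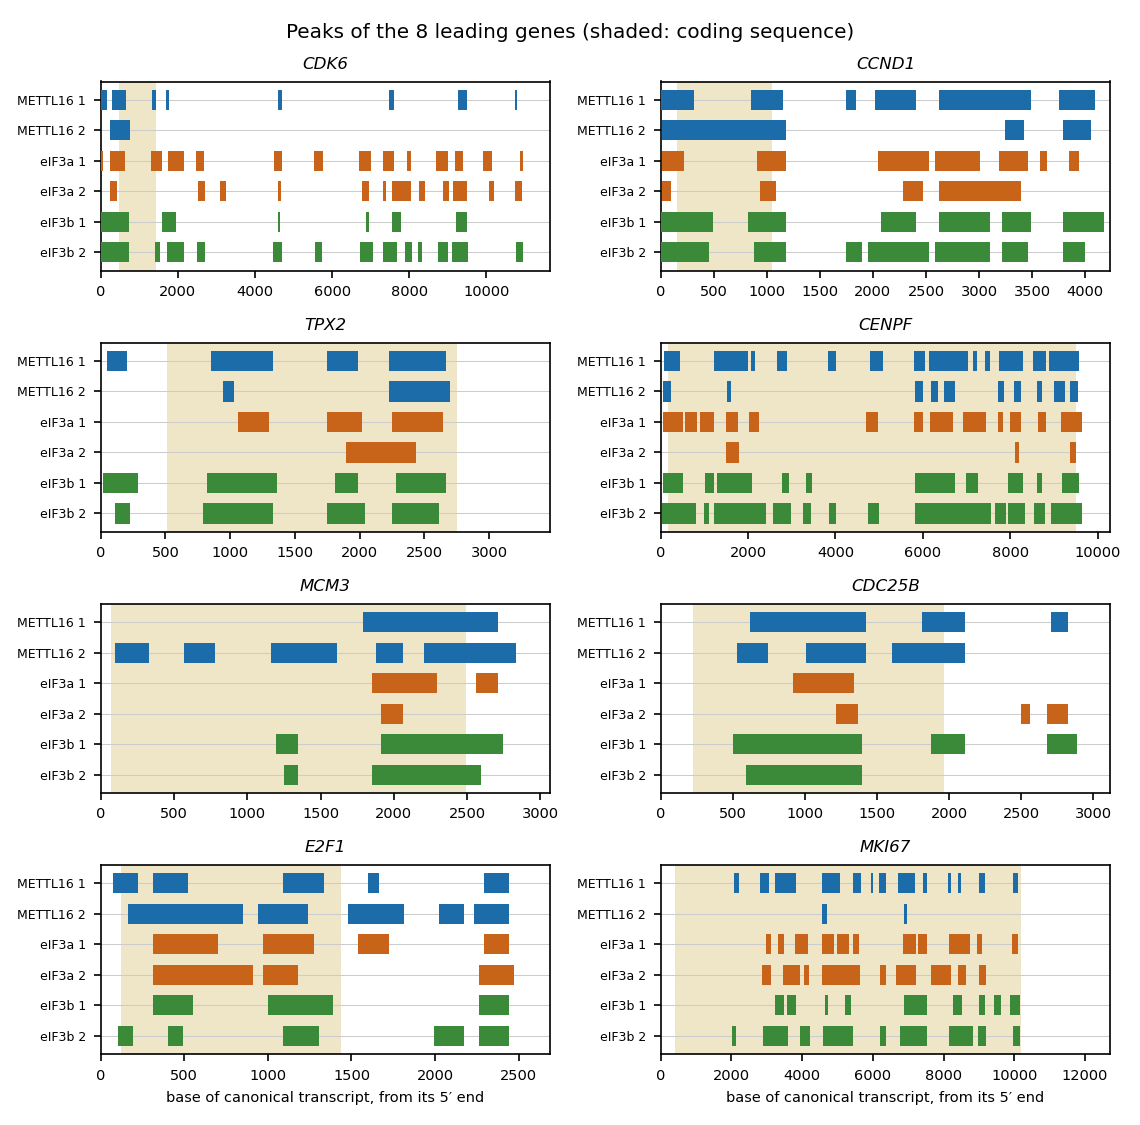
Peaks of CDK6, CCND1, TPX2, CENPF, MCM3, CDC25B, E2F1 and MKI67 along the canonical transcript (horizontal axis, bases from the 5′ end), with 1 row per list and bars from the first to the last base of a peak. Shading marks the coding sequence. CDK6 and CCND1 have peaks on the 5′ UTR or across the start codon in all 6 lists (in eIF3a replicate 2 they end before it, at bases 426 and 100), whereas MKI67 peaks lie inside the coding sequence.

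**Figure D4:**
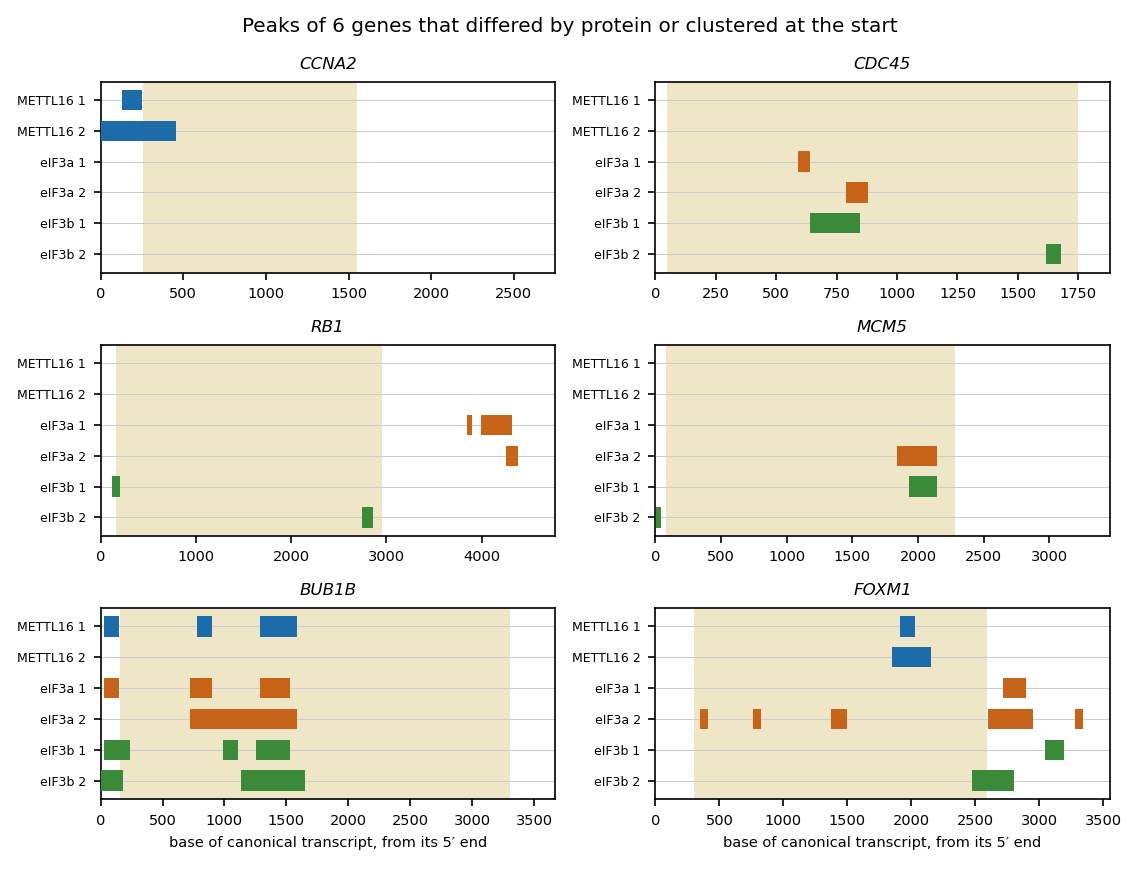
Peaks of CCNA2, CDC45, RB1, MCM5, BUB1B and FOXM1, drawn in the same way (bases from the 5′ end of the transcript, 1 row per list, coding sequence shaded). CCNA2 has peaks with METTL16 alone, CDC45, RB1 and MCM5 with the eIF3 subunits alone, and the FOXM1 peaks of METTL16 lie upstream of the best eIF3 peaks.

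A peak centred on the 5′ UTR or lying across the start codon was present in at least 1 list of each protein on 4 genes, CCND1 and CDK6 (6 lists each), CENPF (5 lists) and BUB1B (4 lists). Over the set, 1 to 8 peaks per list crossed a start codon (1.45% to 8.70%) and 1 to 9 crossed a stop codon (1.45% to 9.28%), with the fewest of both in eIF3a replicate 2. CCND1 was the 1 gene with a peak over the stop codon in every list. Peaks across start or stop codons were not counted over all genes, so these counts cannot be set against a background.

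Where the peaks of the whole set lay was then summarised by the position of their centres. The coding sequence held 77.6% ± 5.28 (SD, n = 2 lists) of the METTL16 peaks, 62.1% ± 3.81 of the eIF3a peaks and 71.0% ± 5.65 of the eIF3b peaks. It makes up 63.9% of the transcript bases of the 41 genes with a peak. Over all genes in the lists the shares were 64.9%, 57.5% and 59.5%. The 3′ UTR held 17.0% ± 3.29, 33.4% ± 4.01 and 23.7% ± 5.85 of the peaks of the set, and the 5′ UTR 5.41% ± 1.99, 4.49% ± 0.199 and 5.29% ± 0.198. Both METTL16 lists had a higher coding share than both eIF3a lists, by 15.5 percentage points on average (exact permutation test, two-sided, p = 0.333, the smallest possible). This difference was 8.52 points by bases, 8.01 by the best peak of each gene and 0.694 with peaks of at least 4-fold (exact permutation p = 1 for the last). METTL16 and eIF3b differed by 6.59 points with overlapping lists (exact permutation p = 0.667), and eIF3a minus eIF3b was -8.89 points (exact permutation p = 0.333).

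The shares rest on few genes. CENPF, CDK6 and MKI67 held 168 of the 529 peaks, or 31.8%, and 45 of the 54 CDK6 peaks lay in the 3′ UTR. Without these 3 genes the coding shares were 73.8%, 65.1% and 72.2%, and the difference between METTL16 and eIF3a became 8.70 points.

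**Figure D5:**
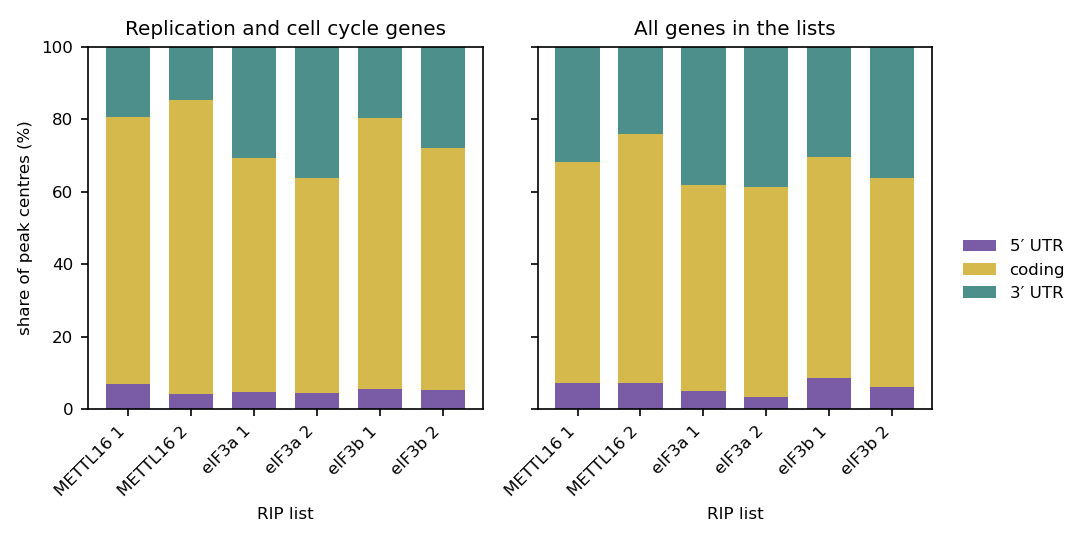
Share of peak centres (vertical axis, percent) in the 5′ UTR, coding sequence and 3′ UTR in each of the 6 lists, for the replication and cell cycle genes (left) and all genes (right). The coding share of the set runs from 59.4% in eIF3a replicate 2 to 81.3% in METTL16 replicate 2.

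Peaks of the set were about as wide as those of other genes. The median width per list was 181 and 180 exonic bases for METTL16, 210 and 181 for eIF3a, and 211 in both eIF3b lists, against 180 to 210 over all genes. The median fold per list lay between 2.17 and 2.91 for the set, and between 2.73 and 3.40 for all peaks, so in each list the peaks of the set were less enriched than the typical peak. Peaks joined more than 1 exon in 39.1% to 60% of cases.

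How far the proteins shared positions on these transcripts was measured as the share of peaks of 1 protein that overlapped a peak of another by at least 1 base. It was 47.5% ± 16.6 (SD over 4 pairs of lists) for METTL16 on eIF3a, 65.5% ± 11.4 for METTL16 on eIF3b and 63.3% ± 5.69 for eIF3a on eIF3b. Over all genes these shares were 51.5%, 69.4% and 60.4%. Between replicates of the same protein the shares of the set were 54.0% ± 10.4 for METTL16, 59.6% ± 16 for eIF3a and 63.6% ± 3.87 for eIF3b, each over 2 directions. The labels name an input for each bait and number, but which input entered each peak call was not stated, and these shares are descriptions.

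Replicates ordered the genes only in part. The Spearman correlation of best-peak fold between replicates was 0.37 over 23 genes for METTL16, 0.52 over 20 for eIF3a and 0.66 over 26 for eIF3b, against 0.63, 0.53 and 0.65 over all genes that both lists hold. The lists come from lines of 1 parental cell line, and these values are given as a description. The METTL16 replicates also differed in which genes they held. CDC6, RFC1, BUB1B and CENPE were in replicate 1 alone, and MCM7, ORC1, PCNA, POLA1, TYMS, CCNB1, CDK1 and CDC25A in replicate 2 alone. The median GC content of the canonical transcripts was 42.4% for the former, 46.2% for the latter, 51.7% for the 23 genes in both lists and 42.4% for the 6 genes with eIF3 peaks alone, the 5 genes without any peak left out. The peaks of the set had a mean GC content of 53.5% and 55.6% with METTL16, 49.4% and 51.2% with eIF3a, and 53.4% and 49.7% with eIF3b, in each case below that of all peaks of the list (53.1% to 60.8%). The part of base composition in these peaks was not tested.

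ACAGAGA, the letters around the adenosine in U6 RNA that METTL16 modifies, and GGACT were searched as those letters on the transcript strand in windows of 101 exonic bases around each peak centre. The motifs do not overlap each other. ACAGAGA was in 1 and 2 windows of the set for METTL16 (1.14% and 2.67%), 1 and 1 for eIF3a (0.935% and 1.45%) and 0 and 2 for eIF3b (0% and 2.08%), against 1.39% to 1.86% of the windows of all peaks. GGACT was in 7 and 9 windows for METTL16 (7.95% and 12%), 6 and 2 for eIF3a (5.61% and 2.90%) and 6 and 2 for eIF3b (6.52% and 2.08%), against 9.88% to 11.3% of all windows. With so few windows per list, no order of the proteins can be read from these counts.

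A wider list of 88 other genes of the same roles was counted in the same way. Of these, 71 (80.7%) had a peak in any list, against 53.6% of protein coding genes, and 17 had none. Of the 71, 22 had a peak in both METTL16 lists (31.0%, against 42.6% of all names), 26 in both eIF3a lists (36.6%, against 42.4%), 32 in both eIF3b lists (45.1%, against 60%) and 15 in all 6 (21.1%, against 25.2%). These shares lay below those of all names, whereas the shares of the 41 genes lay above them. In replication licensing, 0 of the 8 such genes with a peak had one in both METTL16 lists and 3 in both eIF3b lists. At the fork, 15 of 22 (68.2%) had a peak in any list, and among the genes of the mitotic chromosome and spindle 14 of 15 (93.3%). TFDP2, the partner of E2F factors, ranked first of the 15, with folds of 120 and 52.4, 22.1 and 22.3, and 99.9 and 42.9. It was followed by MAD1L1, a spindle checkpoint gene, with 14.0 and 6.41, 9.44 and 20.2, and 7.55 and 8.22, and by CDKN1A, an inhibitor of cyclin-dependent kinases, with 4.09 and 6.80, 14.9 and 1.72, and 6.75 and 3.46.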

How the data were processed

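RIP-seq was run in HepG2 lines, with 2 RIP samples and 2 inputs for each of METTL16, eIF3a and eIF3b. Per the labels and methods, the authors used STAR for alignment to GRCh38 and exomePeak, at its default settings, for the peaks of each RIP sample over input; versions, annotation and the input set against each RIP are not given in the sources used here. For each peak, the authors deposited exonic blocks, a gene name, a p-value, a score (log10 of that value and of its adjusted form) and the fold enrichment, which is a ratio. No counts were used here, so depth and counting intervals are unknown.

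Peaks were placed on canonical transcripts of GENCODE release 44, with the stop codon counted as coding, in Python 3.11.15 with pandas 2.3.3, after the placement was tested on simulated peaks. All 529 peaks of the set lay at least 50% on exons of their gene. Of 10830 names, 10325 matched a current symbol, 443 an older one and 62 none. List values were compared with exact permutation tests over lists. Genes given full values were the 8 best by poorest rank, those split by protein, those with peaks at the start in every protein, and the gene of the widest peak; CDT1, MCM4, GINS1, POLE, FOXM1, E2F2, PLK1, RFC1, POLD1, RRM2, CENPE and AURKB were picked after their values were seen. The gene set and lists were chosen with earlier results of these data known. Alternatives were a fold of at least 4, the 5000 best peaks per list, a left-out replicate, naming by exon overlap, a peak in either replicate, regions by bases or by best peak, an overlap of 50%, a replicate block and, chosen after seeing the data, leaving out CENPF, CDK6 and MKI67.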

Additional observations from a re-analysis of the deposited data

How the results depend on the processing

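The 19 summary results were recomputed under 138 alternative values, of which 6 changed sign and 30 moved by at least the SD between lists (for gene counts, by over 1.5 times). The other 102 stayed within those bounds or, for differences between proteins, kept their sign or became 0, whatever their size. The threshold on peaks mattered most. With a fold of at least 4, genes with a peak in both replicates numbered 7, 4 and 7 for METTL16, eIF3a and eIF3b, and 1 was in all 6 lists. Coding shares became 67.4%, 66.7% and 60.2%, median widths 285, 315.25 and 330.0 bases, and co-location 11.8% for METTL16 on eIF3a, 40.3% for METTL16 on eIF3b and 24.2% for eIF3a on eIF3b. With the 5000 best peaks per list the gene counts were 11, 9 and 9, with 4 in all 6 lists, the eIF3a coding share was 68.4%, widths were 322.25, 368.25 and 413.25 bases, and co-location on eIF3b was 48.3% for METTL16 and 53.4% for eIF3a. A peak in either replicate gave 35 genes for METTL16 and 35 for eIF3a. Shares of all names were not counted for the 5000 best peaks, for either replicate, or for all 6 lists at a fold of at least 4. The eIF3a coding share was 70.1% by bases and 74.7% by the best peak of each gene. An overlap of 50% gave 51.1% for eIF3a on eIF3b. Without CENPF, CDK6 and MKI67, median widths were 173 bases for METTL16 and 195.5 for eIF3b.

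The difference in coding share between METTL16 and eIF3a, 15.5 points, kept its sign but was 8.52 by bases, 8.01 by best peak and 0.694 at a fold of at least 4. Where a difference between proteins changed sign, its exact permutation p under the alternative was 0.667 or 1. In the main setting, eIF3a minus eIF3b had an exact permutation p of 0.333 for coding share and for genes. That is the smallest possible, and both differences changed sign under an alternative. The eIF3a coding share exceeded that of eIF3b by 6.47 points at a fold of at least 4. METTL16 minus eIF3b became 2 genes at a fold of at least 4 and 3 with the 5000 best peaks, and eIF3a minus eIF3b became 0.5. Leaving out a replicate moved METTL16 minus eIF3a between -0.5 and 3.5 genes and METTL16 minus eIF3b between -3.5 and 0.5. The cause was not tested.

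The labels give the same replicate numbers to the 3 proteins, but nothing says that a number marks a shared culture. As a replicate block, the difference in coding share between METTL16 and eIF3a was 15.5 points (exact p = 0.5, the smallest for 2 pairs), and co-location was 49.3%, 61.2% and 63.1%. A block leaves the mean difference as it is, and with 2 pairs no call could be made either way. Depth is unknown, so a gene without a peak cannot be called unbound.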
